A study of Mus musculus with 6 samples.

Results

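Smooth muscle contractile genes were followed in bulk RNA of mouse colon as a set of 31 genes that encode the filaments, regulators, anchors and channels of smooth muscle cells. They are a list of names set as a measure of the muscle layer in the tissue, drawn up with earlier results of these data known, and they are 31 of the 35275 genes in the deposited tables. All 31 had enough counts to be among the 15628 genes tested. The study gave C57BL/6 mice WT IL-22 or 22-B3, an engineered IL-22 variant, at 200 µg per mouse, or PBS, the saline vehicle, and collected colon 6 h later. Each of the 3 groups has 2 libraries, and no further allele or agent is named for any group. The labels do not tie the 2 libraries of a group to separate animals. The p-values therefore rest on how far these particular libraries differ, and that spread may be purely technical.

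Smooth muscle shortens when calcium enters through L-type channels or leaves internal stores, calmodulin activates myosin light chain kinase, and the phosphorylated myosin pulls on actin. Myosin phosphatase reverses this, and an inhibitor of that phosphatase keeps the muscle contracted. The transcription factor SRF, with its muscle co-activator myocardin, binds CArG boxes beside many of these genes, and in the colon most of this program is made by the circular and longitudinal muscle layers. IL-22 acts on cells that carry its receptor, in the gut mainly the epithelium. Some of these genes are also made by vascular smooth muscle or by activated fibroblasts, which bulk RNA does not separate.

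The libraries held 17428528 to 22081904 counts each. The 31 genes took 1.26% and 1.73% of the counts with WT IL-22, 1.70% and 1.90% with 22-B3, and 2.35% and 2.29% with PBS. The PBS libraries stood closer to each other than those of any other pair. Across immunoglobulin variable genes, which differ between B cell clones, the log2 counts of the PBS pair correlated at r = 0.963 (79 genes), while the 14 remaining pairs gave r between -0.147 and 0.165. Among the contractile genes the median difference within a pair was 0.37 log2 units in the WT IL-22 pair, 0.26 in the 22-B3 pair and 0.05 in the PBS pair. The difference exceeded sampling noise for 27 of the 31 genes in the WT IL-22 pair, 24 in the 22-B3 pair and 14 in the PBS pair. Over all tested genes it did so for 51.6%, 56.6% and 23.7%, in the same order. The PBS libraries were thus more alike than those of any other pair, and whether they share an animal was not tested. For this reason the results set against PBS are repeated with both PBS libraries added up as 1.

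Levels per length, given as FPKM, spanned a wide range across the set. Tagln, which encodes the actin-binding protein transgelin, was the most abundant gene, with 751 and 1218 FPKM with WT IL-22, 1229 and 1598 FPKM with 22-B3 and 2166 and 2127 FPKM with PBS. The actins followed. Actg2, the gamma-actin of gut muscle, had 594 and 794 FPKM with WT IL-22, 1041 and 1061 FPKM with 22-B3 and 1233 and 1166 FPKM with PBS. Acta2, the smooth muscle alpha-actin, had 622 and 778 FPKM with WT IL-22, 914 and 929 FPKM with 22-B3 and 1146 and 1087 FPKM with PBS. Below them in PBS colon came Csrp1 at 968 ± 7.98 FPKM, Myl9 at 850.0 ± 38.9, Des at 790.3 ± 8.1, Cnn1 at 610.5 ± 0.179, Tpm1 at 604 ± 12.3, Tpm2 at 552 ± 3.1 and Myh11 at 221 ± 7.92 (SD, n = 2). Cnn1 and Tpm1 did not differ beyond their spread. The channel and regulator genes were lowest, with Kcnma1 at 5.1 ± 0.817, Myocd at 2.4 ± 0.0985 and Cacna1c at 1.47 ± 0.0935 FPKM in PBS colon. The defining genes of smooth muscle were thus all present at high level, while those of striated muscle were scarce. Of 13 skeletal muscle genes, Myh4, Tnnc2 and Myog had a count of 0 in every library, and the whole list summed to 16.9 and 21.5 CPM with WT IL-22, 20.2 and 21.0 with 22-B3 and 30.3 and 28.6 with PBS. The 7 cardiac genes summed to 9.72 to 23.6 CPM over the 6 libraries.

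**Figure D1:**
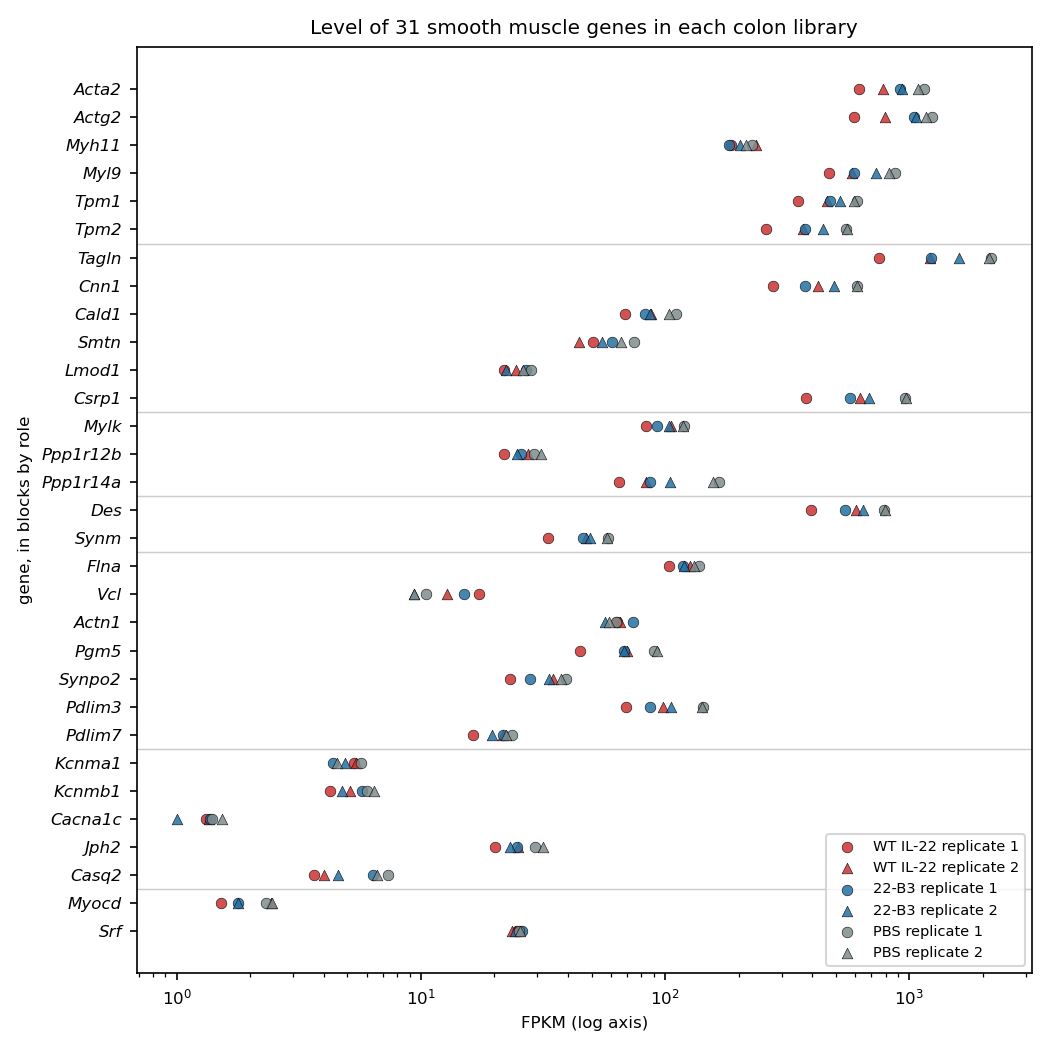
Level of each of the 31 genes in FPKM (log axis) in the 6 colon libraries, with a point per library and genes in blocks by role. Tagln, Actg2 and Acta2 reach the highest levels and Cacna1c the lowest, and for most genes replicate 1 of WT IL-22 is the leftmost point.

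The start regions of the genes were searched for CArG boxes because SRF and myocardin are known for acting through them. RefSeq promoter windows (GRCm38.p6, 250 bases before to 50 after a start, 300 in all) were at hand for 27 of the 31 genes in 33 windows; Myocd, Actg2, Myh11 and Tagln had no entry. A CArG box is a run of 10 bases, CC and GG around a core of 6 letters that are all A or T. It occurred in the windows of Myl9, Srf and Vcl, 3 of the 33 windows, against 1.63% of all 32851 windows. With 1 other letter allowed in the core, boxes were found in 10 of the 33 windows, of Acta2, Cacna1c, Jph2, Myl9, Pdlim3, Srf, Synm and Vcl, against 9.98% of all windows. The box reads the same class of letters on both strands, so 1 search covers both. The TATAAA motif, searched on both strands, was in the windows of Cald1, Srf and Synpo2, against 13.6% of all windows. The stretches around the boxes of 4 genes that behaved differently in the counts are shown with the box in capitals, 5′ to 3′ on the gene's strand: Myl9 and Acta2, which fell with WT IL-22, and Srf and Vcl, which did not. They cover chr2:156775263-156775352, plus strand for Myl9, chr19:34255408-34255497, minus strand for Acta2, chr17:46556195-46556284, minus strand for Srf and chr14:20929148-20929220, plus strand for Vcl.
Myl9: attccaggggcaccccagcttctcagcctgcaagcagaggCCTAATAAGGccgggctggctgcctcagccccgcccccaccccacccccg
Acta2: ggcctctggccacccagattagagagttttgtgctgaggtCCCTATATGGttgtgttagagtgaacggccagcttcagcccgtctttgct
Srf: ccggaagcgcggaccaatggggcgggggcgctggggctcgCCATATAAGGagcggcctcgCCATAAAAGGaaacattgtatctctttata
Vcl: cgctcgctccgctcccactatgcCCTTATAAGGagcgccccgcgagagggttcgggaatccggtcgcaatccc
The box shown for Myl9 begins 161 bases before the RefSeq start, that of Acta2 84, the first of the 2 of Srf 82 and that of Vcl 227. The box of Acta2 has 1 core letter that is neither A nor T. Both genes that fell and genes that did not thus carry a box, and a match is a description of letters, not of a bound site.

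With WT IL-22, actins, tropomyosin, transgelin and the inhibitor of myosin phosphatase were lower than with PBS, while the differences of the myosin heavy chain and the transcription factors did not pass. Of the 31 genes, 11 fell at an edgeR adjusted p under 0.05 (Benjamini-Hochberg over all 15628 genes), where 6.74% of all tested genes fell. At an unadjusted p under 0.05, 18 of the 31 were lower, against 16.2% of all tested genes. In the edgeR test 0 of the 31 rose at an adjusted p under 0.05, where 9.9% of all tested genes rose, and 1 was higher at an unadjusted p under 0.05, against 18.7% of all. The median log2 change of the 31 genes was -0.51, against -0.01 over all tested genes, and 28 of the 31 lay below 0, as did 51.0% of all genes. Both WT IL-22 libraries lay below both PBS libraries for 26 of the 31, as they did for 35.3% of all tested genes; the exceptions were Myh11, Vcl, Actn1, Kcnma1 and Myocd. In bulk RNA, fewer muscle cells in the piece of colon and less RNA per muscle cell cannot be told apart.

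The fall was uneven between libraries and its calls rest on few of them. On average over the 31 genes, WT IL-22 replicate 1 lay 0.70 log2 units below the PBS mean and replicate 2 lay 0.35 below it. Replicate 1 was the lowest of the 6 libraries for 24 of the 31 genes, while PBS replicate 1 was the highest for 12 and PBS replicate 2 for 16. With the PBS libraries summed into 1 library, edgeR passed 0 of the 31 genes and called 0.179% of all tested genes lower. Then 12 of the 31 were lower at an unadjusted p under 0.05, against 7.75% of all, and the median change of the 31 was -0.51. Without WT IL-22 replicate 1 edgeR passed 0 of the 31 and called 0.774% of all genes lower; 11 of the 31 were lower at an unadjusted p under 0.05, against 9.54% of all, with a median of -0.35. Without PBS replicate 1 it passed 0 and called 0.161% of all genes lower, with 13 of the 31 lower at an unadjusted p under 0.05, against 8.51% of all. Without PBS replicate 2 it passed 0 and called 0.174% of all genes lower, with 12 of the 31 lower at an unadjusted p under 0.05, against 7.64% of all. The calls in the whole table thus fell away in these fits as well. With 22-B3 replicate 1 or 2 left out, the median change of the 31 was -0.54 or -0.51, and Vcl lay above 0 in both fits.

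**Figure D2:**
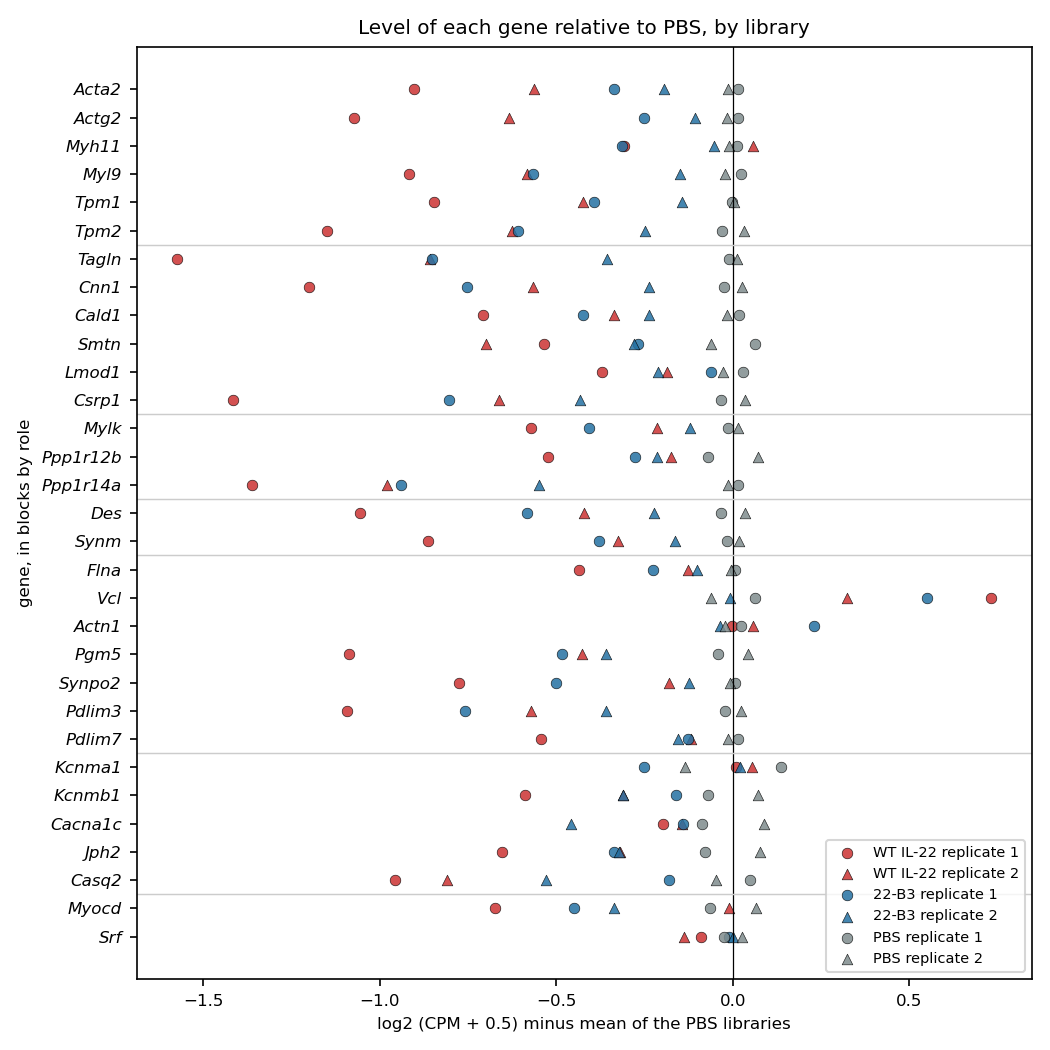
Level of each gene in each library as log2(CPM + 0.5) minus the mean of the PBS libraries, with genes in blocks by role. WT IL-22 replicate 1 lies farthest left for 24 of the 31 genes, the PBS libraries lie near 0, and Vcl lies right of 0 in both WT IL-22 libraries.

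Among the filament genes, 4 of 6 fell with WT IL-22 and the median log2 change of the 6 was -0.73. Acta2 (chr19:34241090-34255336, minus strand, mm10) had 1073 and 1359 CPM with WT IL-22, 1590.4 and 1753 CPM with 22-B3 and 2026 and 1989 CPM with PBS. It fell by 0.72 on the log2 scale (95% interval -1.16 to -0.29, edgeR adjusted p = 0.0368). Both WT IL-22 libraries were the lowest of the 6, the 22-B3 libraries lay between, and no groups overlapped. Actg2 (chr6:83512905-83536265, minus strand) had 767 and 1039 CPM with WT IL-22, 1356 and 1498 CPM with 22-B3 and 1632 and 1597 CPM with PBS, the same order of groups, and it fell by 0.84 on the log2 scale (95% interval -1.29 to -0.38, edgeR adjusted p = 0.0267). Myl9 (chr2:156775420-156781658, plus strand), the regulatory light chain that the kinase phosphorylates, had 512 and 646 CPM with WT IL-22, 653 and 872 CPM with 22-B3 and 983 and 953 CPM with PBS. It fell by 0.74 on the log2 scale (95% interval -1.20 to -0.28, edgeR adjusted p = 0.0403); WT IL-22 replicate 2 lay close to 22-B3 replicate 1. Tpm2 (chr4:43514711-43523765, minus strand), a tropomyosin that lies along the actin filament, had 547 and 786 CPM with WT IL-22, 795 and 1021 CPM with 22-B3 and 1188 and 1239 CPM with PBS. It fell by 0.86 on the log2 scale (95% interval -1.37 to -0.36, edgeR adjusted p = 0.0333), and here too WT IL-22 replicate 2 was close to 22-B3 replicate 1. The other tropomyosin, Tpm1, had 979 and 1311 CPM with WT IL-22, 1341 and 1594 CPM with 22-B3 and 1757 and 1767 CPM with PBS, a log2 difference of -0.62 that did not pass (edgeR adjusted p = 0.0688), with all WT IL-22 values below all PBS values. Myh11, the smooth muscle myosin heavy chain and the most specific marker of the set, had 1194 and 1536 CPM with WT IL-22, 1188 and 1423 CPM with 22-B3 and 1490.2 and 1466 CPM with PBS. Its log2 difference from PBS was -0.11 (95% interval -0.56 to 0.33, edgeR adjusted p = 0.714), and the groups overlapped, with WT IL-22 replicate 2 the highest library. The interval of Myh11 did not reach the estimates of the 4 filament genes that fell, but it overlapped their intervals. Myh11 was not tested against these genes. With the length trend of each library removed, as described below, Myh11 stood at -0.38 and Myl9 at -0.35 against PBS. Acta2 and Actg2, and Tpm1 and Tpm2, are close relatives, and since the handling of reads that match both is not given in the sources used here, the split between the members of each pair is uncertain.

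Of the 6 regulators that bind the filaments, 3 fell with WT IL-22, and the range of log2 changes was -1.17 to -0.28. Tagln (chr9:45929628-45936058, minus strand) had 1155 and 1896 CPM with WT IL-22, 1906 and 2684 CPM with 22-B3 and 3411 and 3466 CPM with PBS. It fell by 1.17 on the log2 scale (95% interval -1.80 to -0.55, edgeR adjusted p = 0.0256), and its WT IL-22 replicate 2 and 22-B3 replicate 1 were nearly equal. Csrp1 (chr1:135720061-135752232, plus strand), a LIM-domain protein of actin filaments, had 669 and 1129 CPM with WT IL-22, 1024 and 1324 CPM with 22-B3 and 1747 and 1829 CPM with PBS, and it fell by 0.99 on the log2 scale (95% interval -1.59 to -0.40, edgeR adjusted p = 0.0365). The WT IL-22 and 22-B3 libraries of Csrp1 overlapped, and all 4 lay below both PBS libraries. Smtn (chr11:3517523-3540612, minus strand), which encodes smoothelin, a protein of contractile smooth muscle, had 166 and 148 CPM with WT IL-22, 199.9 and 198 CPM with 22-B3 and 252 and 231 CPM with PBS. It fell by 0.62 on the log2 scale (95% interval -0.94 to -0.29, edgeR adjusted p = 0.0237); it is the filament regulator in which WT IL-22 replicate 2, not replicate 1, was the lowest. Cnn1, the calponin that restrains actin-activated myosin, had 635 and 985 CPM with WT IL-22, 866 and 1239 CPM with 22-B3 and 1435 and 1486 CPM with PBS. Its log2 difference of -0.85 had an edgeR adjusted p of 0.0531 and did not pass. Cald1, the actin-binding caldesmon, had 316 and 409 CPM with WT IL-22, 386 and 439 CPM with 22-B3 and 524 and 511 CPM with PBS and a log2 difference of -0.51 (edgeR adjusted p = 0.0789). Lmod1, a leiomodin that nucleates actin filaments, had 83.7 and 95.1 CPM with WT IL-22, 104 and 93.3 CPM with 22-B3 and 110.4 and 106 CPM with PBS, a log2 difference of -0.28 (edgeR adjusted p = 0.192).

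In the switch that sets myosin phosphorylation, the inhibitor fell and the kinase and phosphatase subunit did not pass. Ppp1r14a (chr7:29289320-29293390, plus strand), which encodes the inhibitor of myosin phosphatase known as CPI-17, had 33.4 and 43.7 CPM with WT IL-22, 44.9 and 59.1 CPM with 22-B3 and 87.5 and 85.7 CPM with PBS. It fell by 1.17 on the log2 scale (95% interval -1.59 to -0.75, edgeR adjusted p = 0.0067), the smallest p of the set. Both WT IL-22 libraries and both 22-B3 libraries lay well below the PBS pair, and WT IL-22 replicate 2 and 22-B3 replicate 1 were close. Mylk, the myosin light chain kinase, had 631 and 809 CPM with WT IL-22, 708 and 862 CPM with 22-B3 and 930.1 and 948 CPM with PBS and a log2 difference of -0.38 (95% interval -0.82 to 0.05, edgeR adjusted p = 0.19). Ppp1r12b, a targeting subunit of myosin phosphatase, had 187 and 238 CPM with WT IL-22, 222 and 232 CPM with 22-B3 and 256 and 283 CPM with PBS and a log2 difference of -0.34 (95% interval -0.71 to 0.03, edgeR adjusted p = 0.171). For both genes the WT IL-22 libraries lay below the PBS libraries and overlapped the 22-B3 libraries. These genes differ in length, at 531 bases for Ppp1r14a, 7824 for Mylk and 8840 for Ppp1r12b. With the length trend of each library removed, as described below, their log2 differences were -0.57, -0.68 and -0.65. The edgeR adjusted p were then 0.0171, 0.0674 and 0.051, so Ppp1r14a still passed but no longer had the largest change. The FPKM ratio of Ppp1r14a to Ppp1r12b was 2.98 and 3.05 with WT IL-22, 3.37 and 4.25 with 22-B3 and 5.69 and 5.05 with PBS, so the groups kept that order without overlap. This ratio sets a short gene against a long one. Over all tested genes, the median change with WT IL-22 was -0.58 in the shortest of 20 length bins and 0.34 in the longest. The part of length in the ratio was not tested.

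The intermediate filament genes, which tie the contractile units together, did not pass. Des, which encodes desmin, had 1161 and 1803 CPM with WT IL-22, 1614 and 2068 CPM with 22-B3 and 2358 and 2476 CPM with PBS and a log2 difference of -0.71 (95% interval -1.27 to -0.15, edgeR adjusted p = 0.0806). Synm, which encodes synemin, had 253 and 368 CPM with WT IL-22, 354 and 411 CPM with 22-B3 and 455 and 466 CPM with PBS and a log2 difference of -0.57 (edgeR adjusted p = 0.082). In both, WT IL-22 replicate 1 was by far the lowest library and replicate 2 lay among the 22-B3 values.

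Of the 7 genes of adhesions, dense bodies and Z-disc-like structures, 2 fell with WT IL-22. Pdlim3 (chr8:45885485-45919546, plus strand), a PDZ and LIM protein that binds alpha-actinin, had 106 and 153 CPM with WT IL-22, 134 and 177 CPM with 22-B3 and 223 and 230.2 CPM with PBS. It fell by 0.81 on the log2 scale (95% interval -1.28 to -0.34, edgeR adjusted p = 0.0322). Pgm5 (chr19:24683016-24861855, minus strand), an enzyme relative found at cell adhesions, had 141 and 223 CPM with WT IL-22, 214 and 233 CPM with 22-B3 and 291 and 308 CPM with PBS and fell by 0.72 on the log2 scale (95% interval -1.20 to -0.24, edgeR adjusted p = 0.0493). In both genes the WT IL-22 and 22-B3 libraries overlapped below the PBS pair. Vcl, the adhesion protein vinculin, went the other way without passing: it had 87.3 and 65.6 CPM with WT IL-22, 76.9 and 52.1 CPM with 22-B3 and 54.7 and 50.2 CPM with PBS, a log2 difference of 0.54 (95% interval 0.06 to 1.03, edgeR adjusted p = 0.106). Both WT IL-22 libraries lay above both PBS libraries, and the 22-B3 replicates were split. Vcl was called higher at an edgeR adjusted p of 0.0235 with only the 2 groups and 0.014 with a replicate block. In these fits 2788 of 15419 and 2496 of 15628 tested genes were called higher. Vcl overlaps Ap3m1 on the opposite strand, whose mean count was 147% of that of Vcl and whose own log2 change was 0.06; as the strand setting of the counting is not given in the sources used here, the Vcl value is uncertain. Actn1, an alpha-actinin that crosslinks actin, had 229 and 239 CPM with WT IL-22, 269.8 and 224 CPM with 22-B3 and 234 and 226 CPM with PBS and a log2 difference of 0.03, or -0.09 under upper-quartile scaling. The 6 values of Actn1 lay close together and the groups overlapped. Flna, the actin crosslinker filamin A, had 851 and 1054 CPM with WT IL-22, 982 and 1071 CPM with 22-B3 and 1155 and 1146 CPM with PBS, a log2 difference of -0.27 (edgeR adjusted p = 0.313). Synpo2, an actin-binding protein of the Z-disc, had 160.4 and 242 CPM with WT IL-22, 194 and 252 CPM with 22-B3 and 276 and 274 CPM with PBS, a log2 difference of -0.45 (edgeR adjusted p = 0.175). Pdlim7, another PDZ and LIM protein, had 56.7 and 76.2 CPM with WT IL-22, 75.8 and 74.2 CPM with 22-B3 and 83.6 and 82 CPM with PBS, a log2 difference of -0.32 (edgeR adjusted p = 0.199). In these 3 genes WT IL-22 replicate 1 was the lowest library and replicate 2 lay near the 22-B3 values.

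Among the 5 channel and calcium genes, the store protein fell and the channels did not pass. Casq2 (chr3:102086415-102146514, plus strand), a calsequestrin that holds calcium in the sarcoplasmic reticulum, had 9.06 and 10.1 CPM with WT IL-22, 15.9 and 12.4 CPM with 22-B3 and 18.7 and 17.4 CPM with PBS. It fell by 0.91 on the log2 scale (95% interval -1.34 to -0.49, edgeR adjusted p = 0.016), and both WT IL-22 libraries lay below the other 4. Jph2, a junctophilin that joins the reticulum to the cell membrane, had 81.9 and 103 CPM with WT IL-22, 102 and 103 CPM with 22-B3 and 122 and 136 CPM with PBS and a log2 difference of -0.48 (edgeR adjusted p = 0.0634). Kcnmb1, the beta subunit of the large-conductance potassium channel that relaxes the muscle, had 17.3 and 21.1 CPM with WT IL-22, 23.5 and 21.1 CPM with 22-B3 and 25 and 27.7 CPM with PBS and a log2 difference of -0.45 (edgeR adjusted p = 0.0881). In both, the WT IL-22 libraries lay below the PBS pair and overlapped or met the 22-B3 values. Kcnma1, the pore of the same channel, had 25.7 and 26.5 CPM with WT IL-22, 21.4 and 25.9 CPM with 22-B3 and 28.1 and 23.2 CPM with PBS, with overlapping groups and a log2 difference of 0.02, or -0.09 under upper-quartile scaling. Cacna1c, the pore of the L-type calcium channel, had 16.9 and 17.6 CPM with WT IL-22, 17.6 and 14 CPM with 22-B3 and 18.3 and 20.7 CPM with PBS and a log2 difference of -0.18 (95% interval -0.57 to 0.22). The Cacna1c value is uncertain for the same reason as that of Vcl, since Dcp1b overlaps it on the opposite strand with a mean count 96% of its own; the overlapping Kcnip1 had 9.76% of the count of Kcnmb1.

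Neither of the transcription control genes passed. Srf had 98.5 and 95.1 CPM with WT IL-22, 104 and 105 CPM with 22-B3 and 103 and 107 CPM with PBS, a log2 difference of -0.11 (95% interval -0.40 to 0.18, edgeR adjusted p = 0.554). Myocd had 7.57 and 12.3 CPM with WT IL-22, 8.92 and 9.69 CPM with 22-B3 and 11.8 and 13 CPM with PBS, a log2 difference of -0.32 (95% interval -0.87 to 0.23, edgeR adjusted p = 0.377). The WT IL-22 libraries of Myocd were far apart, the lowest and a value inside the PBS range, while the 6 values of Srf lay within 95.1 to 107 CPM.

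**Figure D3:**
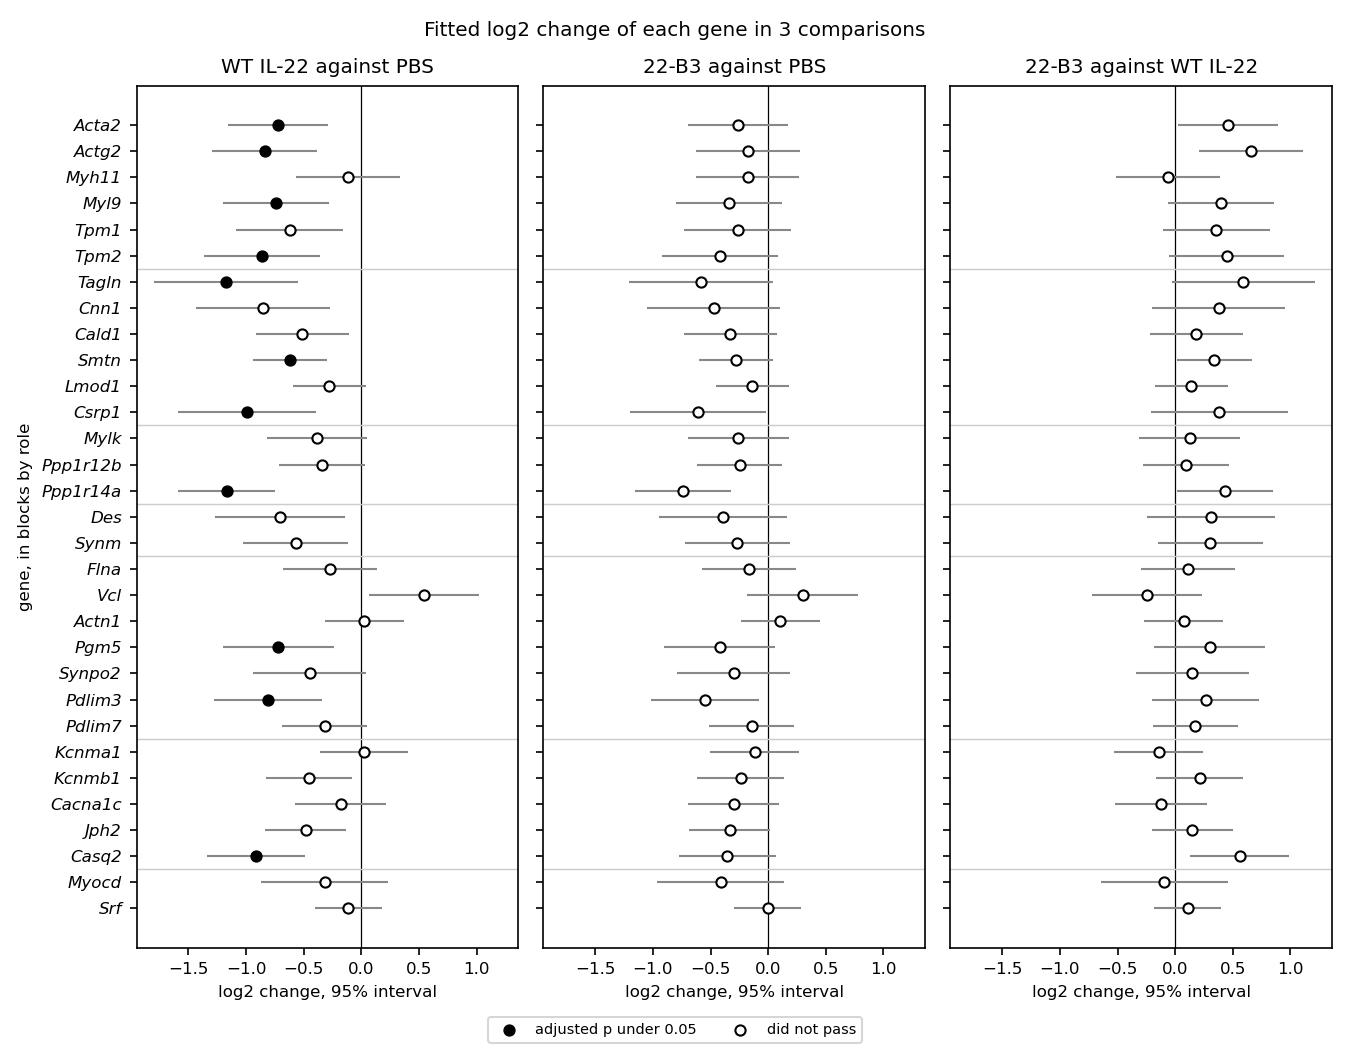
Fitted log2 change of each gene with its 95% interval in the 3 comparisons, with filled points for edgeR adjusted p under 0.05. There are 11 filled points with WT IL-22 against PBS, all left of 0, and 0 in either comparison of 22-B3.

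With 22-B3, the contractile genes were also mostly below PBS, with a smaller median difference, and none passed. edgeR called 0 of the 31 genes in either direction. Over all tested genes, 0.154% fell and 0.947% rose. At an unadjusted p under 0.05, 3 of the 31 were lower and 0 higher, against 6.74% lower and 11.5% higher of all genes, so the count of lower genes was near that of the whole table. DESeq2 called 1, Ppp1r14a, where it called 1.04% of all genes lower, and limma-voom and limma on log2 FPKM called 0. With the PBS libraries summed edgeR called 0 as well. The median log2 change was -0.28 over the 31 genes and 0.01 over all tested genes, and 29 of the 31 lay below 0, against 49.0% of all genes. Both 22-B3 libraries lay below both PBS libraries for 27 of the 31, against 25.5% of all tested genes; the exceptions were Vcl, Actn1, Kcnma1 and Srf. On average over the set, 22-B3 replicate 1 lay 0.36 and replicate 2 0.23 log2 units below the PBS mean.

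The 3 genes below an unadjusted p of 0.05 were Ppp1r14a, Csrp1 and Pdlim3. Ppp1r14a had 44.9 and 59.1 CPM with 22-B3 and 87.5 and 85.7 CPM with PBS, a log2 difference of -0.74 (95% interval -1.15 to -0.32, edgeR adjusted p = 0.106). With 22-B3 replicate 2 left out its log2 change was -0.94. In the fit with a replicate block it passed, with -0.75, as did Pdlim3, where 1.77% of all tested genes were called lower. The CPM of Csrp1 were 1024 and 1324 with 22-B3 and 1747 and 1829 with PBS, a log2 difference of -0.61 (95% interval -1.20 to -0.02, edgeR adjusted p = 0.265). For Pdlim3 they were 134 and 177 with 22-B3 and 223 and 230.2 with PBS, a log2 difference of -0.55 (95% interval -1.01 to -0.08, edgeR adjusted p = 0.221). In all 3 the 22-B3 libraries lay below the PBS pair without overlap. Of the genes that fell with WT IL-22, the actins were among the closest to PBS here: Acta2 differed by -0.26 (95% interval -0.70 to 0.17) and Actg2 by -0.18 (95% interval -0.63 to 0.27). Tagln differed by -0.58 (95% interval -1.20 to 0.04) and Casq2 by -0.36 (95% interval -0.78 to 0.06). Myh11 differed by -0.18, and 22-B3 replicate 1 was its lowest library.

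Set directly against WT IL-22, 22-B3 gave higher values for most of the genes, and none passed. edgeR called 0 of 31 in either direction. Over all tested genes, 0.032% rose and 0.0704% fell. At an unadjusted p under 0.05, 5 of the 31 were higher and 0 lower, against 5.09% higher and 4.82% lower of all genes. DESeq2 called 1, Actg2, and limma-voom and limma on log2 FPKM called 0. The median log2 difference was 0.21 over the 31 genes and 0.00 over all tested genes, and 5 of the 31 lay below 0. Both 22-B3 libraries lay above both WT IL-22 libraries for 10 of the 31 genes, against 17.6% of all tested genes. That a gene fell with WT IL-22 and did not pass with 22-B3 is thus not a shown difference between the proteins. The median rests on WT IL-22 replicate 1: it was 0.04 without it and 0.40 without replicate 2.

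The 5 genes were Acta2, Actg2, Smtn, Ppp1r14a and Casq2. Actg2 differed most, at 1356 and 1498 CPM with 22-B3 and 767 and 1039 CPM with WT IL-22, a log2 difference of 0.66 (95% interval 0.21 to 1.11, edgeR adjusted p = 0.355). Casq2 had 15.9 and 12.4 CPM with 22-B3 and 9.06 and 10.1 CPM with WT IL-22 (log2 difference 0.56, 95% interval 0.13 to 0.99, edgeR adjusted p = 0.409). Acta2 differed by 0.46, Ppp1r14a by 0.43 and Smtn by 0.34, with edgeR adjusted p of 0.494, 0.498 and 0.494. In each of the 5 both 22-B3 libraries lay above both WT IL-22 libraries. Tagln differed by 0.59, and its interval of -0.03 to 1.21 was among the widest. At the other end, Myh11 differed by -0.06 (95% interval -0.51 to 0.38), Myocd by -0.09 (95% interval -0.65 to 0.46) and Vcl by -0.25 (95% interval -0.72 to 0.23).

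Within a library, the actin and transgelin genes did not keep a constant ratio to the thick filament. The FPKM ratio of Tagln to Myh11 was 4.04 and 5.16 with WT IL-22, 6.71 and 7.89 with 22-B3 and 9.57 and 9.89 with PBS. That of Actg2 to Myh11 was 3.20 and 3.36 with WT IL-22, 5.68 and 5.24 with 22-B3 and 5.45 and 5.42 with PBS. That of Acta2 to Myh11 was 3.35 and 3.29 with WT IL-22, 4.98 and 4.59 with 22-B3 and 5.06 and 5.05 with PBS. The actin ratios were thus lowest in both WT IL-22 libraries, and the WT IL-22 replicates were close in ratio although not in level. With 22-B3 the Actg2 ratios lay on either side of the PBS values, and both Acta2 ratios lay below them. The ratio of Acta2 to Actg2 moved little, at 1.05 and 0.979 with WT IL-22, 0.878 and 0.876 with 22-B3 and 0.929 and 0.932 with PBS. Such ratios show unequal change, not which gene changed. Myh11 is also longer than the other genes in them, and the change went with length, as described next. With WT IL-22 against PBS, the changes as tested were -0.84 for Actg2, -0.72 for Acta2, -1.17 for Tagln and -0.11 for Myh11. With the length trend of each library removed they were -0.515, -0.523, -0.929 and -0.382, so these genes lay nearer to Myh11.

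The size of the change went with gene length, in these genes and in the whole table. Myh11 has a deposited gene length of 6632 bases, Acta2 1781, Tagln 1586, Actg2 1333 and Ppp1r14a 531. Across the 31 genes, length and the log2 change correlated at a Spearman rho of 0.775 with WT IL-22 against PBS, 0.495 with 22-B3 against PBS and -0.815 with 22-B3 against WT IL-22. Across all 15628 tested genes the rho was 0.393 with WT IL-22 against PBS, 0.242 with 22-B3 against PBS and -0.384 with 22-B3 against WT IL-22; the points share their libraries, and genes are not independent. Among all genes in the shortest quartile (66 to 1884 bases) the median change with WT IL-22 was -0.37 and 14.8% fell. In the longest quartile (4436 to 84395 bases) the median was 0.25 and 1.36% fell. All 7 contractile genes in the shortest quartile fell (Acta2, Actg2, Myl9, Tagln, Csrp1, Ppp1r14a and Pdlim3), with a median of -0.84, and 0 of the 11 in the longest quartile passed, with a median of -0.32. In the second quartile 2 of 4 fell and in the third 2 of 9. In every quartile the contractile genes' median lay below that of all genes. The shift was seen in both WT IL-22 libraries and in 22-B3 replicate 1: the median of all genes in the shortest quartile lay at -0.37 and -0.29 relative to PBS with WT IL-22, at -0.28 and 0.01 with 22-B3, and at -0.01 and 0.01 with PBS.

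**Figure D4:**
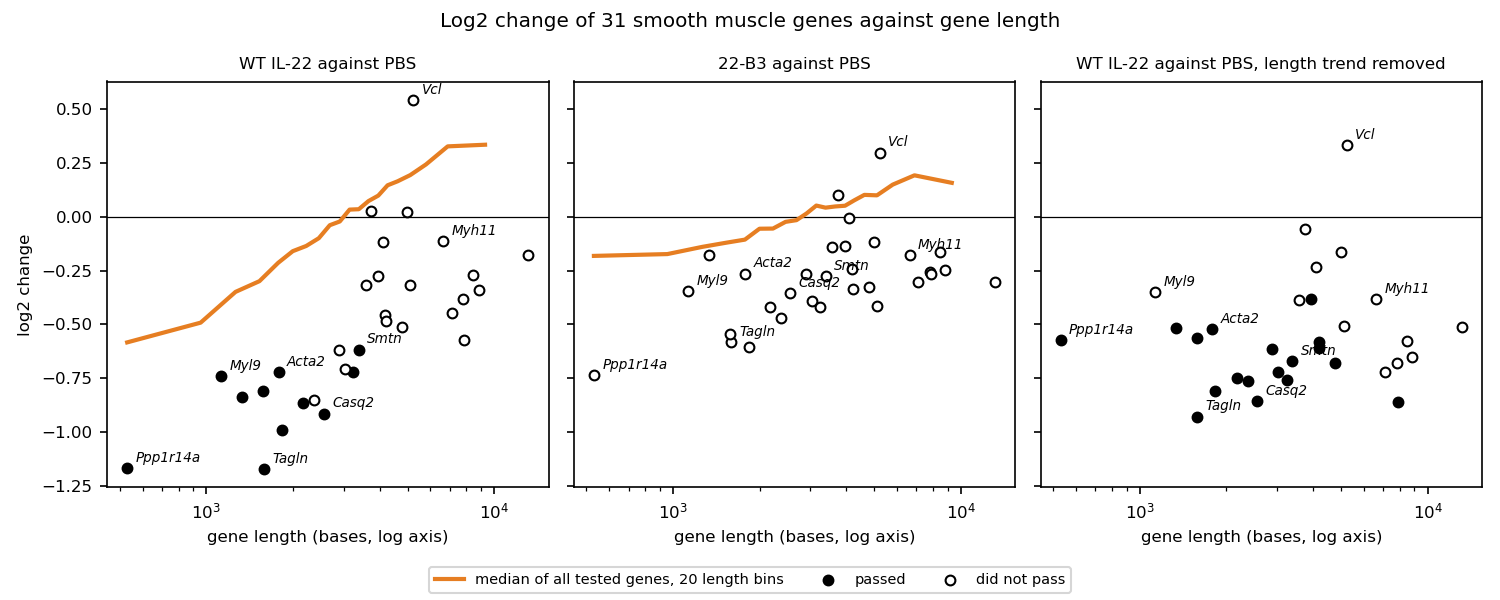
Log2 change of the 31 genes against deposited gene length (log axis) for WT IL-22 and 22-B3 against PBS, with the median of all tested genes in 20 length bins, and for WT IL-22 against PBS with the length trend of each library removed. Short genes such as Ppp1r14a lie lowest in the left panel, while in the right panel the points follow no clear slope and 18 are filled.

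When the trend of level on length was removed from each library, an alternative chosen after the data had been seen, the contractile genes still lay below PBS and their changes spread less. With WT IL-22, 18 of the 31 fell, including 10 of the 11 named above, where 6.51% of all tested genes fell. Of the 31, 25 were lower at an unadjusted p under 0.05, against 14.7% of all. The exception among the 11 was Myl9, with a log2 change of -0.35 and an edgeR adjusted p of 0.0999. The median was -0.58, 30 of the 31 lay below 0, and Vcl was the one above. The SD of the log2 changes over the 31 genes was 0.262, against 0.377 before, and rho with length was 0.13. Myh11 then stood at -0.38 (edgeR adjusted p = 0.246) and Ppp1r14a at -0.57 (edgeR adjusted p = 0.0171). With the PBS libraries summed as well, edgeR passed 0 of the 31 and called 0.383% of all genes lower, 18 of the 31 were lower at an unadjusted p under 0.05, against 7.14% of all, and the median was -0.60. With 22-B3, edgeR passed 0 against PBS and 0 against WT IL-22, and the medians were -0.37 and 0.28. At an unadjusted p under 0.05, 9 of the 31 were lower against PBS, where 7.92% of all genes were, and 4 were higher against WT IL-22, where 4.27% of all genes were. What makes level depend on length in these libraries was not tested.

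Other smooth muscle genes, a list of 54 tested genes that shares none with the 31, had a median change nearer to 0. With WT IL-22, 7 fell and 1 rose at an edgeR adjusted p under 0.05, where 6.74% of all tested genes fell and 9.9% rose. At an unadjusted p under 0.05, 19 were lower and 4 higher, where 16.2% of all tested genes were lower and 18.7% higher. The median log2 change of the 54 was -0.26. Fhl1, a LIM-domain protein of muscle, had 207 and 329 CPM with WT IL-22, 413 and 393 CPM with 22-B3 and 636 and 610.3 CPM with PBS and fell by 1.22 on the log2 scale (95% interval -1.72 to -0.72, edgeR adjusted p = 0.0106). Myl6, the essential light chain of myosin, had 809 and 896 CPM with WT IL-22, 923 and 1431 CPM with 22-B3 and 1527 and 1566 CPM with PBS and fell by 0.86 on the log2 scale (95% interval -1.38 to -0.34, edgeR adjusted p = 0.0363). Kcnj8, a pore of the ATP-sensitive potassium channel, fell by 0.85, the small heat shock proteins Hspb8 and Hspb7 by 0.84 and 0.61, the sarcoglycan Sgcb by 0.66 and the creatine kinase Ckb by 0.56 on the log2 scale. The gene that rose was Atp2a2, a calcium pump of the reticulum that many cell types make, with 436 and 309 CPM with WT IL-22, 340.1 and 251 CPM with 22-B3 and 197 and 202 CPM with PBS (log2 change 0.90, 95% interval 0.42 to 1.38, edgeR adjusted p = 0.0254). With 22-B3, edgeR passed 0 of the 54 against PBS and 0 against WT IL-22. At an unadjusted p under 0.05, 10 were lower and 2 higher against PBS, where 6.74% of all tested genes were lower and 11.5% higher. Against WT IL-22, 0 were lower and 1 higher, where 4.82% of all tested genes were lower and 5.09% higher.

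Markers of the cells beside the muscle were read in the same libraries. Over all tested genes, 6.74% fell and 9.9% rose with WT IL-22 at an edgeR adjusted p under 0.05. At an unadjusted p under 0.05, 16.2% were lower and 18.7% higher. The 12 fibroblast genes summed to 1857 and 2687 CPM with WT IL-22, 2172 and 2066 with 22-B3 and 2604 and 2615 with PBS, and 2 of the 12 fell with WT IL-22, with a median log2 change of -0.09 over the list. Dcn, the matrix protein decorin, was 1 of the 2, with 201 and 292 CPM with WT IL-22, 249.8 and 259.9 CPM with 22-B3 and 396 and 392 CPM with PBS. The collagen genes Col3a1 and Col1a2 did not pass, at log2 differences of -0.14 (edgeR adjusted p = 0.722) and 0.08 (edgeR adjusted p = 0.808). With WT IL-22, 5 of the 12 fibroblast genes were lower and 1 higher at an unadjusted p under 0.05. On the mean log2 scale the fibroblast list lay at -0.52 and -0.04 with WT IL-22, so replicate 1 was low for it as for the contractile genes, and replicate 2 was not. The 7 enteric glia genes lay at -0.41 and -0.11 with WT IL-22 and at -0.44 and -0.17 with 22-B3. With WT IL-22 edgeR passed 0 of them, and 1 was higher at an unadjusted p under 0.05. Their summed CPM ran the other way, at 280.2 and 226 with WT IL-22, 293 and 213 with 22-B3 and 188 and 185 with PBS. Most of that sum was Erbb3, a receptor that epithelium also makes, with 259.7 and 195 CPM with WT IL-22, 274 and 187 CPM with 22-B3 and 154 and 149 CPM with PBS. Interstitial cells of Cajal, the pacemakers of gut muscle, lay at 0.08 and -0.08 with WT IL-22 and at 0.07 and -0.07 with 22-B3 over 5 genes. Their sums were 576 and 501 CPM with WT IL-22, 693 and 479 with 22-B3 and 489 and 453 with PBS. With WT IL-22 edgeR passed 0 of the 5, and 1 was lower at an unadjusted p under 0.05. The 12 enteric neuron genes lay at 0.37 and 0.00 with WT IL-22 and at -0.03 and -0.28 with 22-B3. Their sums were 159 and 128 CPM with WT IL-22, 119.9 and 120.2 with 22-B3 and 151 and 152 with PBS. With WT IL-22 edgeR passed 0 of the 12, and at an unadjusted p under 0.05 2 were higher and 3 lower.

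Vascular mural genes (7 tested) lay at -0.26 and 0.07 with WT IL-22 and at -0.35 and -0.24 with 22-B3. With WT IL-22 edgeR passed 0 of them, and 0 had an unadjusted p under 0.05. Their sums were 383 and 460 CPM with WT IL-22, 266 and 448 with 22-B3 and 493 and 460 with PBS. The 12 epithelial genes summed to 20007 and 19376 CPM with WT IL-22, 20601 and 22932 with 22-B3 and 20603 and 20500.4 with PBS, and lay at 0.15 and -0.01 with WT IL-22 and at 0.04 and 0.16 with 22-B3. Of these 12, 2 rose and 1 fell with WT IL-22, where 9.9% of all tested genes rose and 6.74% fell. The epithelial sum thus stayed between 19376 and 22932 CPM, while that of the contractile genes was 12251 and 16942 CPM with WT IL-22, 16592 and 20146 with 22-B3 and 23286 and 23560 with PBS. Endothelial genes summed to 247 and 273 CPM with WT IL-22, 236 and 242 with 22-B3 and 258 and 240.3 with PBS. Mesothelial genes summed to 120.01 and 141 CPM with WT IL-22, 132 and 138 with 22-B3 and 142 and 154 with PBS. The 7 adipocyte genes summed to 106 and 72.7 CPM with WT IL-22, 126 and 55.5 with 22-B3 and 147 and 137 with PBS. With WT IL-22, 1 of them fell, where 6.74% of all tested genes fell. The adipocyte sum was thus below both PBS values in every treated library, with the replicates in another order than those of the contractile genes. All 7 adipocyte genes lay below 0 against PBS with either protein. Their median log2 changes, -0.73 with WT IL-22 and -0.75 with 22-B3, were farther from 0 than those of the contractile genes, -0.51 and -0.28. Enteric glia, at -0.53 and -0.47, were also farther from 0 with both proteins. In the same order, mesothelium had -0.33 and -0.29, vascular mural genes 0.07 and -0.33 and fibroblasts -0.09 and -0.20. Endothelium had -0.03 and -0.12, interstitial cells of Cajal 0.02 and -0.04, enteric neurons 0.34 and -0.05 and epithelium 0.10 and 0.22. Of the scarce striated muscle genes, 1 of the 7 skeletal and 2 of the 4 cardiac genes tested fell with WT IL-22, and 0 rose. In these lists 6 of the 7 and 3 of the 4 lay below 0, with medians of -0.56 and -1.05. The skeletal gene Ckm did not pass, at a log2 difference of -0.55 (edgeR adjusted p = 0.103). The skeletal actin Acta1, a near relative of Acta2, had 5.61 and 6.18 CPM with WT IL-22, 6 and 6.63 CPM with 22-B3 and 10.7 and 10.4 CPM with PBS and fell by 0.84 on the log2 scale (95% interval -1.28 to -0.40, edgeR adjusted p = 0.024). The cardiac troponin gene Tnnt2 had 5.05 and 6.98 CPM with WT IL-22, 18.3 and 10.8 CPM with 22-B3 and 15.8 and 16.7 CPM with PBS and fell by 1.43 on the log2 scale (95% interval -2.06 to -0.81, edgeR adjusted p = 0.0131). The part of each of these cell types in the contractile result was not tested. Neither these lists nor that of the other smooth muscle genes was adjusted for gene length, with which the change went over all tested genes.

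**Figure D5:**
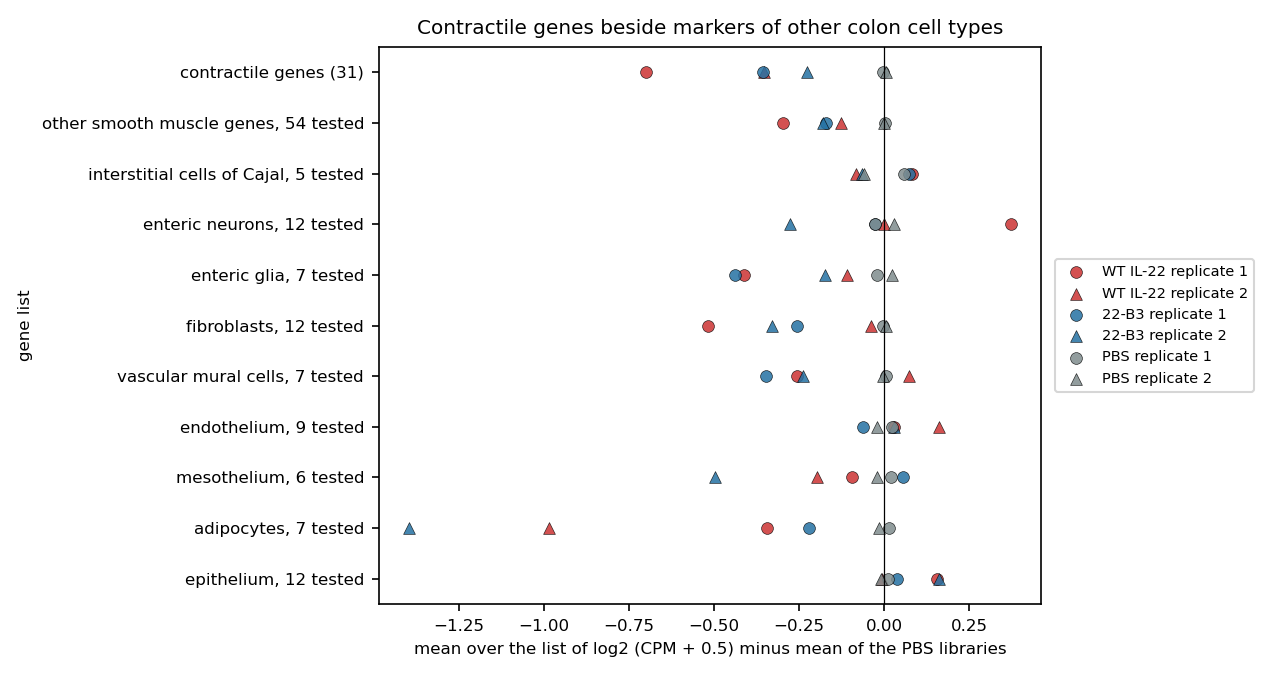
Mean over each gene list of log2(CPM + 0.5) minus the mean of the PBS libraries, with a point per library, for the 31 contractile genes and for markers of neighbouring cell types. The contractile genes lie at -0.70 and -0.35 with WT IL-22 and at -0.36 and -0.23 with 22-B3, while endothelium and interstitial cells of Cajal lie within 0.16 log2 units of 0. Other lists are also low. Adipocytes lie at -0.34 and -0.98 with WT IL-22 and at -0.22 and -1.40 with 22-B3, fibroblasts at -0.52 and -0.04 and at -0.26 and -0.33. Enteric glia lie at -0.41 and -0.11 with WT IL-22 and at -0.44 and -0.17 with 22-B3.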

How the data were processed

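RNA of whole colon from C57BL/6 mice was sequenced by the submitters, who homogenised frozen tissue, purified RNA on columns and enriched mRNA for the libraries, per the labels. Alignment tool and build are STAR 2.5 and mm10 in the submitters' processing notes; the counting program, its annotation and its strand setting are not given in the sources used here. The deposited count table holds the authors' whole-number read counts per gene, not normalized, as its values and the file headers show. The FPKM values in the deposited FPKM table follow from those counts, gene lengths and column totals to within a relative deviation of 5e-12. Symbols, positions and gene lengths are those of the deposited tables. No column belonged to a sample outside the series.

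Counts were analysed in R 4.3.3 with edgeR 4.0.16: filterByExpr, TMM scaling, 1 mean per group over all 6 libraries, and the robust quasi-likelihood test with Benjamini-Hochberg adjustment over all 15628 tested genes, with a threshold of 0.05 and intervals at 95%. Levels are TMM-normalized CPM, or deposited FPKM where genes are compared, with the SD over 2 libraries. The column totals of 17428528 to 22081904 counts give small counting error for most of the 31 genes, so the spread between 2 libraries limits the precision. The pair differences were called beyond sampling noise at the 5% point of the chi-square distribution, and the immunoglobulin genes were those with at least 50 counts over a pair. The tests were checked on simulated data with known changes. All 31 genes are named; of the other smooth muscle genes, at most 8 that passed, those with the largest absolute change, and of each marker list at most 3, those with the highest mean CPM, could be named. The 31 genes, their roles and the lists were chosen with earlier results of these data known. Of the 20 alternatives, 18 were planned (other scalings and filters, DESeq2 1.42.0, limma-voom and limma 3.58.1 on log2 FPKM, a replicate block, the PBS libraries summed, only the groups compared, and each library left out). The other 2, which remove a lowess trend of level on gene length (span 0.3), were chosen after seeing the data. The numbers of the replicates were treated as names only, because the labels do not say that they pair animals. The deviations of libraries with the same replicate number correlated at 0.255 between WT IL-22 and 22-B3, 0.051 between WT IL-22 and PBS and 0.043 between 22-B3 and PBS. Whether the WT IL-22 and 22-B3 libraries of the same number share a factor was not tested.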

Additional observations from a re-analysis of the deposited data

How the results depend on the processing

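With WT IL-22 against PBS, 11 of the 31 genes passed. This count was 17 with DESeq2, 19 with only the 2 groups in the fit, 20 with a replicate block, 0 with the PBS libraries summed, 18 with the length trend removed and 0 with the PBS libraries summed and the length trend removed. Of the 19 and of the 20, 1 was Vcl, called higher, where 2788 of 15419 and 2496 of 15628 tested genes were called higher. The share of all tested genes called lower moved as well, at 6.74% as reported, 9.74% with DESeq2, 14.7% with only the 2 groups, 12.8% with the block and 0.179% with the PBS libraries summed. Leaving out 1 library at a time gave 0 to 19. The other scalings, filters and tests gave 10 to 14. With 22-B3 against PBS the count of 0 was 1 without a filter, 1 with DESeq2 and 2 with a replicate block. All of these were lower, where 0.349%, 1.04% and 1.77% of all genes were called lower. With 1 library left out, the median change of the 31 ranged from -0.34 to -0.24. With 22-B3 against WT IL-22 the count of 0 was 1 with DESeq2, in the direction of higher values with 22-B3. DESeq2 called 77 of 15325 genes higher there. The replicate block turned the direction of 0 of the 31 genes in the 3 comparisons. Upper-quartile scaling moved the median of all genes to -0.13 with WT IL-22 and to -0.10 with 22-B3 against PBS. With WT IL-22 against PBS, directions turned in 12 values, all of genes that had not passed. Actn1 stood at -0.0886 under upper-quartile scaling, -0.0293 without WT IL-22 replicate 2, -0.0585 with the length trend removed and -0.0474 with the PBS libraries summed as well. Kcnma1 stood at -0.0915 under upper-quartile scaling, -0.000255 with a mean count of at least 50, -0.0246 without WT IL-22 replicate 2, -0.00017 without 22-B3 replicate 1, -0.106 without PBS replicate 2, -0.164 with the length trend removed and -0.157 with the PBS libraries summed as well. Myh11 stood at 0.031 without WT IL-22 replicate 1. With 22-B3 against PBS, 5 values turned, and 28 to 31 of the 31 genes lay below 0: Actn1 stood at -0.00685 under upper-quartile scaling and -0.0636 without 22-B3 replicate 1, Vcl at -0.0368 without 22-B3 replicate 1, Kcnma1 at 0.0311 without PBS replicate 1 and Srf at 0.0224 without PBS replicate 2. With 22-B3 against WT IL-22, 19 values of 11 genes turned, and 2 to 11 of the 31 lay below 0, with the 11 without WT IL-22 replicate 1. There Myh11 stood at 0.126 without WT IL-22 replicate 2, 0.0577 without 22-B3 replicate 1, 0.0841 with the length trend removed and 0.087 with the PBS libraries summed as well, Myocd at 0.295 without WT IL-22 replicate 2 and 0.00475 with the trend removed and the PBS libraries summed, and Vcl at 0.00687 without 22-B3 replicate 2. With WT IL-22 against PBS, over the fits that leave out 1 library, Myh11 ranged from -0.333 to 0.031, Actn1 from -0.0293 to 0.0563 and Kcnma1 from -0.106 to 0.175. Leaving out a library removes residual degrees of freedom, and a lone library is then assumed to vary like the other groups. The cause of the other differences between settings was not tested. With 2 libraries a group, no group could be searched for a library far from the others.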
